A study of Rattus norvegicus with 2 samples.

Results

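The expression of 10 genes of matricellular and adhesive matrix proteins was examined in the acetabular cartilage of swaddled rats, namely the periostin pair Postn and Tgfbi, the tenascins Tnc and Tnn, the thrombospondins Thbs1, Thbs2, Thbs3 and Thbs4, and Sparc and Fn1. The members were picked by name, with the ratios between these libraries already known, from a deposited table of 17337 genes, and all 10 were found. Those ratios are therefore a description, and no test is attached to them. Wistar rats of the DA-DDH group, a disarticulation model of developmental dysplasia of the hip, were swaddled for 10 days from birth with adducted hips and extended knees, and then moved freely until the cartilage was taken at 3 weeks of age. Control rats of the same age and strain moved without restriction. RNA of 5 DA-DDH rats was pooled into 1 library and RNA of 4 control rats into another. Sex was not evaluated in the study, and swaddled rats also weighed less than control rats. With 1 library per condition the conditions could not be tested, and every difference below compares 2 libraries without a replicate check.

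Matricellular proteins are secreted into the matrix and act mainly on how cells attach to it and read its signals, rather than bearing load as collagens do. Periostin and the Tgfbi protein are built from repeated fasciclin domains and bind integrins and collagen. Tenascins and fibronectin carry long arrays of fibronectin type III domains, and thrombospondins form oligomers that bind calcium, collagens and growth factors. In joints several of these genes are known from perichondrium, periosteum, tendon, synovium and healing tissue. Thbs1 is also known from cartilage, and Sparc and Fn1 are expressed widely in skeletal tissue.

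The deposited values were converted to reads, which came to 833869 in the DA-DDH library and 796723 in the control library. The cartilage identity of the tissue was seen in Col2a1, the main collagen of hyaline cartilage, which held 11.4% of the DA-DDH reads and 29.3% of the control reads. Because this gene alone took so different a share, ratios were scaled by TMM, which trims the most extreme genes before setting the scale. Total-count scaling would move every log2 ratio up by 0.43. Intervals are 95% exact intervals and cover counting error only, not variation between rats, dissections or libraries. Genes were counted when the higher of their values in the 2 libraries reached a floor of 30 reads, which 4375 did. In DA-DDH cartilage 4.82% of these were over 2-fold higher and 3.04% over 2-fold lower.

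The members spread in both directions between the libraries. Postn and Tnn were over 2-fold higher in DA-DDH cartilage, against a background of 4.82% of genes, Thbs1 was over 2-fold lower, against 3.04%, and the other 7 lay within 2-fold. Of the 10 genes, 8 had a log2 ratio above 0, while 2 (Thbs1 and Sparc) had one below 0, while of all genes at the floor 52.6% lay above 0 and 47.4% below. The median log2 ratio of the members was 0.41, compared with 0.03 over all genes at the floor. These genes were selected with earlier results known, so the counts describe the members and are not evidence that the families differ from other genes. The central 95% of all genes at that floor ran from -1.08 to 1.21, and all 10 members lay inside it. At a floor of 100 reads, which 1313 genes reached, it ran from -1.20 to 1.02, and Postn and Tnn lay above it. All members reached this floor, where 2.89% of genes were over 2-fold higher and 3.81% over 2-fold lower, compared with 16.3% and 11.8% of genes with any read. Past 1.5-fold, 4 members (Postn, Tnn, Tnc and Fn1) were higher and 2 (Thbs1 and Sparc) lower, beside 14.4% and 10.3% of the genes at the floor of 30 reads. With total-count scaling 4 members were over 2-fold higher and 0 over 2-fold lower, where 14.6% and 1.07% of all genes at that floor were. As a ratio to Gapdh these counts were 2 and 0, beside 6.88% and 2.15% of all genes.

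**Figure D1:**
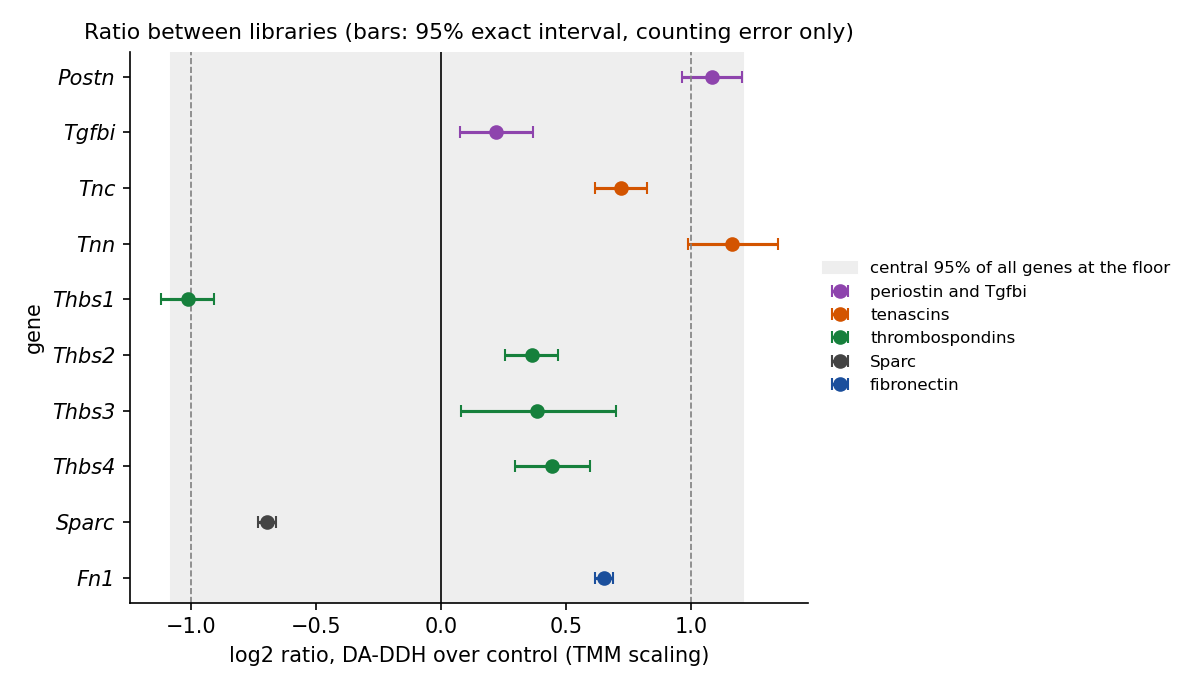
Log2 ratio of DA-DDH over control for each member on the horizontal axis, with genes on the vertical axis colored by family. Points are the ratios, bars the 95% exact intervals from counting error, dashed lines mark 2-fold, and the grey band is the central 95% of all genes at the floor, from -1.08 to 1.21. Postn and Tnn lie right of the upper dashed line and Thbs1 left of the lower one.

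**Figure D2:**
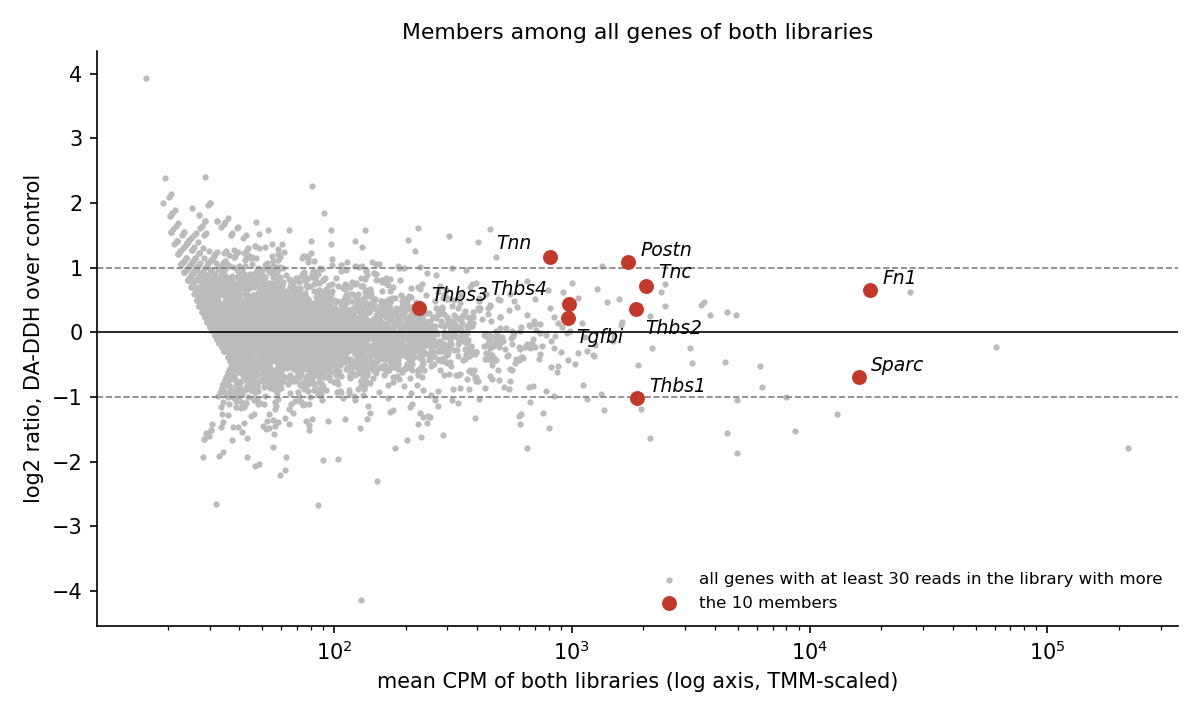
Log2 ratio of DA-DDH over control on the vertical axis against the mean CPM of both libraries on a logarithmic horizontal axis. Each grey point is 1 of the 4375 genes at the floor of 30 reads, the 10 members are red, and dashed lines mark 2-fold. The members lie among the more abundant genes, where the grey points are sparse, and Thbs3 is the least abundant of them.

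Postn encodes periostin, the matricellular protein on which the study centered. In rn6 it spans bases 143656845 to 143688087 of chromosome 2 on the plus strand, in 22 annotated exons, and like the other members it shares no exon with another gene of the table. It had 2269 reads in the DA-DDH library (95% exact Poisson interval 2177 to 2364) and 762 in the control library (709 to 818). After scaling to reads per 1000000 (CPM) this was 2347 in the DA-DDH library and 1109 in the control library, giving 1.08 on the log2 scale (interval 0.96 to 1.20), that is, 2.12-fold higher in DA-DDH cartilage. By number of reads Postn ranked 24 of all genes in the DA-DDH library and 53 in the control library.

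The promoter of Postn is shown because Postn passed 2-fold and is the subject of the study. It is the RefSeq sequence of the GRCr8 assembly, chr2:140677811-140678110 on the plus strand, which runs from 250 bases before the annotated start to 50 bases after it. Capitals mark the only match to the motifs searched, a TATA box (TATAAA) that begins at position -44 from the start.
Postn: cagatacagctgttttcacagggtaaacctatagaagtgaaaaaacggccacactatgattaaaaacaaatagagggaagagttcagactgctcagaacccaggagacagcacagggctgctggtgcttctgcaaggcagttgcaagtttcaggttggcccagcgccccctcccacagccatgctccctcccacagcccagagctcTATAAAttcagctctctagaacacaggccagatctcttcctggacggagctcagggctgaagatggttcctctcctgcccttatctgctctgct
On either strand, TATAAA was found in 14.2% of 33365 promoters of this length. The STAT site TTCNNNGAA, the AP-1 site TGANTCA, the TEAD site GGAATG, the CArG box and the NF-kB site had no match in this window. Most promoters searched lacked each of them too. The shares with a match were 8.88%, 7.34%, 14.2%, 1.63% and 4.19% in the same order, so these absences say little.

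Tgfbi encodes a fasciclin domain protein that was first known as a product induced by TGF-beta. Its rn6 position is chromosome 17, bases 8400123 to 8429338, minus strand. Tgfbi had 1000 reads in the DA-DDH library (interval 939 to 1064) and 610 in the control library (563 to 660), a log2 ratio of 0.22 (interval 0.07 to 0.37). With TMM the gene was thus nearly level between the libraries while its paralog Postn was not. With total-count scaling Tgfbi lay at 0.65 and Postn at 1.51, and as a ratio to Gapdh at 0.35 and 1.21. In rn6 both genes hold a run of 4 consecutive exons of identical length, 165, 147, 142 and 213 bases.

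Set against each other, Postn and Tgfbi differed by 0.86 in log2 ratio (exact conditional interval 0.67 to 1.05). This difference is a ratio of reads within each library and does not depend on the scaling. Per kb of annotated exon, the level of Postn was 739 CPM per kb in the DA-DDH library and 349 in the control library, and that of Tgfbi was 384 in the DA-DDH library and 330 in the control library. The paralogs were hence at about the same level in the control library, where Postn was 1.06-fold higher (interval 0.95 to 1.18), but apart in the DA-DDH library, where it was 1.92-fold higher. Postn made up 65.8% of the summed level of the pair in the DA-DDH library and 51.4% in the control library.

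Tnc encodes tenascin C, a hexameric glycoprotein of perichondrium, tendon and wounds. In rn6 it spans bases 79790275 to 79849865 of chromosome 5 on the minus strand. Tnc had 2466 reads in the DA-DDH library (interval 2370 to 2565) and 1066 in the control library (1003 to 1132), a log2 ratio of 0.72 (interval 0.61 to 0.82). It was higher in the DA-DDH library, though by less than 2-fold. With total-count scaling it passed 2-fold, at 1.14, as did Fn1, at 1.08.

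Tnn encodes tenascin N, also called tenascin W, which is known mainly from periosteum and developing bone. Its rn6 position is chromosome 13, bases 77829389 to 77896741, minus strand. Tnn had 1082 reads in the DA-DDH library (interval 1018 to 1148) and 343 in the control library (308 to 381). Its log2 ratio was 1.16 (interval 0.99 to 1.34), which is 2.24-fold and the highest of the 10 members. Its rank by reads was 47 of all genes in the DA-DDH library and 152 in the control library, the largest difference in rank among the members apart from that of Thbs3.

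The promoter of Tnn is given as that of the member with the highest ratio, from RefSeq on GRCr8, chr13:74919740-74920039 on the minus strand, with the same window around the start. Capitals mark a TEAD site (GGAATG) that begins at position -154 from the start and an NF-kB site that begins at position -76.
Tnn: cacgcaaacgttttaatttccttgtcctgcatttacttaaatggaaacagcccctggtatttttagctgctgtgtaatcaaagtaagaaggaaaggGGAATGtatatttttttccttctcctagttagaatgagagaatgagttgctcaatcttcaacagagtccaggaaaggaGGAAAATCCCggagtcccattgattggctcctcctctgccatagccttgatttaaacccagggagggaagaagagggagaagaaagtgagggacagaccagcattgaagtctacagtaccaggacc
On either strand, the TEAD site was found in 14.2% of all promoters searched and the NF-kB site in 4.19%. A match says that these letters are present and not that a factor binds there. The window of Tnn held no TATAAA, and no motif of the set was shared with Postn.

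Between the tenascins, the log2 ratio of Tnc minus that of Tnn was -0.45 (exact conditional interval -0.66 to -0.24). Both were higher in the DA-DDH library, with a summed log2 ratio of 0.84 (interval 0.75 to 0.93). In level per exon length Tnc stayed the larger tenascin, at 414 CPM per kb in the DA-DDH library and 252 in the control library. Tnn was at 194 CPM per kb in the DA-DDH library and 86.3 in the control library. Tnn therefore took 31.8% of the tenascin level in the DA-DDH library and 25.5% in the control library. In the annotation Tnn has 10 exons of exactly 264 bases, about the size that codes for a fibronectin type III domain, and Tnc has 5 of 273 bases. Splice forms of tenascin C and fibronectin that include or skip such exons cannot be seen in reads summed by gene.

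**Figure D3:**
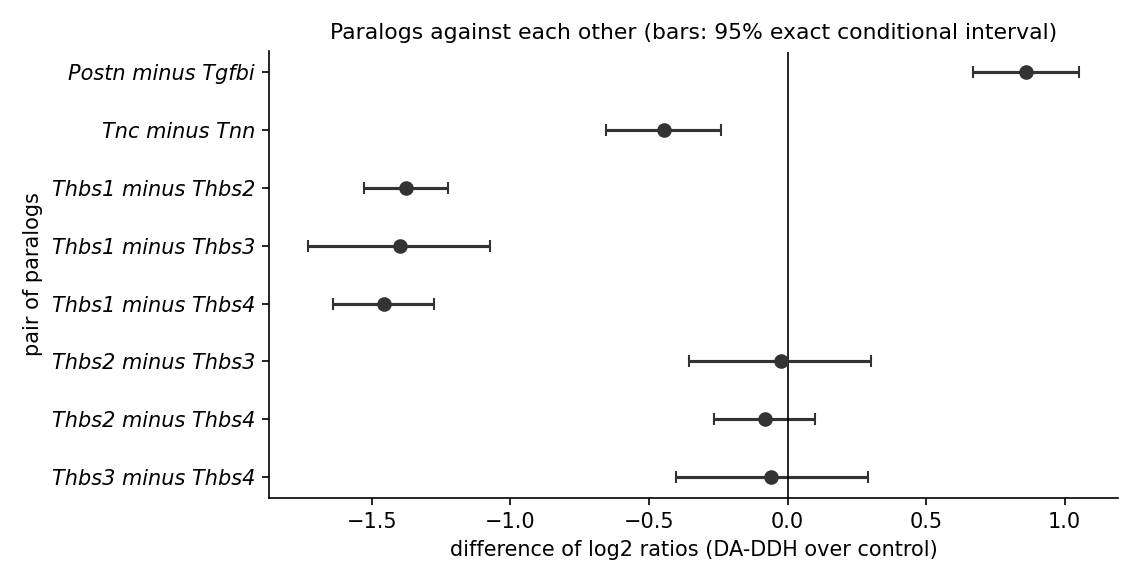
Difference between paralogs in log2 ratio of DA-DDH over control on the horizontal axis, for the 8 pairs within a family on the vertical axis. Points are log2 odds ratios of reads and bars their 95% exact conditional intervals, which do not depend on scaling. The 3 pairs with Thbs1 lie between -1.46 and -1.38, and the 3 pairs among Thbs2, Thbs3 and Thbs4 have intervals that include 0.

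The thrombospondins did not share a direction. Thbs1 encodes a trimeric protein of platelets, fibroblasts and cartilage that binds CD47 and CD36 and can release TGF-beta from its latent form. In rn6 it spans bases 109862120 to 109873466 of chromosome 3 on the plus strand. Thbs1 had 1200 reads in the DA-DDH library (interval 1133 to 1270) and 1722 in the control library (1642 to 1805), which gives -1.01 on the log2 scale (interval -1.12 to -0.91), that is, 2.02-fold lower. This was the lowest ratio of the members, at the edge of the 2-fold threshold. It lay at -0.59 with total-count scaling and at -0.89 as a ratio to Gapdh, within 2-fold under both.

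The other thrombospondins among the members had log2 ratios close to each other and above 0. Thbs2, the closest paralog of Thbs1 and likewise a trimer, is known as an inhibitor of vessel growth and spans bases 56653929 to 56683571 of rn6 chromosome 1, minus strand. Thbs2 had 2036 reads in the DA-DDH library and 1126 in the control library, at 0.36 (interval 0.26 to 0.47). Thbs3, at bases 188528979 to 188540738 of rn6 chromosome 2 (plus strand), and Thbs4, at bases 22343727 to 22385855 of the same chromosome (minus strand), encode pentamers that lack the repeats through which Thbs1 acts on TGF-beta. Thbs3 had 250 reads in the DA-DDH library and 136 in the control library, at 0.39 (interval 0.08 to 0.70), the widest interval of the members, with the fewest reads. Thbs4, which is abundant in tendon, had 1089 reads in the DA-DDH library and 569 in the control library, at 0.44 (interval 0.30 to 0.59).

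Across the 6 pairs of thrombospondins, only those with Thbs1 had an interval that excluded 0. Thbs1 differed from Thbs2 by -1.38 (interval -1.53 to -1.22), from Thbs3 by -1.40 (-1.73 to -1.07) and from Thbs4 by -1.46 (-1.64 to -1.27). Among the rest the differences were -0.02 for Thbs2 against Thbs3 (interval -0.35 to 0.30), -0.08 for Thbs2 against Thbs4 (-0.27 to 0.10) and -0.06 for Thbs3 against Thbs4 (-0.40 to 0.29). These intervals bound the differences but do not show that the genes behave alike. Of all 8 pairs in the 3 families, 5 had intervals that excluded 0. In the annotation, Thbs1 shares with Thbs2 a run of 11 exons of identical length, Thbs3 and Thbs4 share a run of 10, and all 4 genes share the run of 108, 160 and 119 bases.

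Thbs1 to Thbs4 are counted as the family here, without Comp, a further thrombospondin with 2590 DA-DDH and 2554 control reads. After scaling their sum was nearly level, with 4575 reads in the DA-DDH library and 3553 in the control library (log2 ratio -0.13, interval -0.19 to -0.06). This sum turns positive with total-count scaling. The make-up of the family differed between the libraries. By level per exon length Thbs1 took 30.1% in the DA-DDH library and 53.4% in the control library, where it was the highest of these genes. Thbs2 took 32.2% in the DA-DDH library and 22.0% in the control library. The shares of Thbs4 were 30.6% in the DA-DDH library and 19.8% in the control library, and those of Thbs3 7.17% in the DA-DDH library and 4.82% in the control library. By this measure Thbs1, Thbs2 and Thbs4 were about equal in the DA-DDH library, whereas by reads, without length correction, Thbs2 held 44.5%, Thbs1 26.2% and Thbs4 23.8%. The annotation of Thbs1 is broken into 42 pieces with 22 gaps of under 20 bases, and its last piece has 190 bases against 1991 in Thbs2, so levels per length of these paralogs are less certain than their ratios between libraries.

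**Figure D4:**
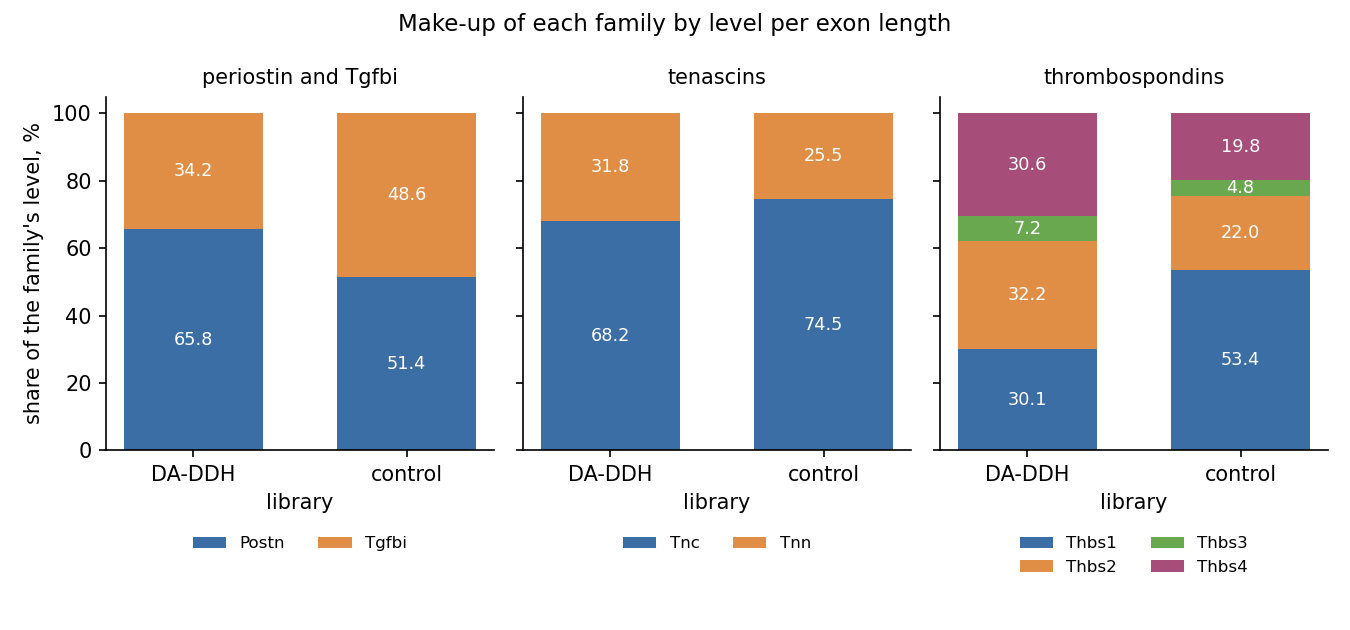
Share of each gene in the summed level of its family (members only), in percent on the vertical axis. The DA-DDH library is left and the control library right in each panel. Levels are CPM per kb of annotated exon and colors mark the genes. Thbs1 makes up 30.1% in the DA-DDH library and 53.4% in the control library, and Postn 65.8% in the DA-DDH library and 51.4% in the control library.

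The promoter of Thbs1 is shown as that of the member with the lowest ratio, from RefSeq on GRCr8, chr3:125510000-125510299 on the plus strand. Capitals mark a STAT site (TTCNNNGAA) that begins at position -243 from the start and a TEAD site that begins at position -47.
Thbs1: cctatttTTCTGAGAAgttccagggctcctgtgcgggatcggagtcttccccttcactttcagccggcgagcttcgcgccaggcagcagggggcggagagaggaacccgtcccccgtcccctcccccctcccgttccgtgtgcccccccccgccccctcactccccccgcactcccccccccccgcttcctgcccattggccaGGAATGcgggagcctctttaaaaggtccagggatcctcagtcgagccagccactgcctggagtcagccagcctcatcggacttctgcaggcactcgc
The STAT site was found in 8.88% of all promoters searched. Promoter sequences matched 8 of the 10 members. A TEAD site was present in 4 of these, Tnn, Thbs1, Thbs4 and Sparc, which include genes higher and genes lower in the DA-DDH library. TATAAA was present in Postn and Tnc, and neither the AP-1 site nor the CArG box in any of the 8. The AP-1 site was found in 7.34% and the CArG box in 1.63% of all promoters searched, so their absence from 8 windows says little. The GC content of the Thbs1 window was 67.0%, compared with 52.0% for Postn, 43.7% for Tnn and a median of 51.7% over all promoters.

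Sparc encodes osteonectin, a collagen-binding protein of bone, cartilage and fibrous tissue, and spans bases 40742390 to 40764141 of rn6 chromosome 10, minus strand. Sparc had 11892 reads in the DA-DDH library (interval 11679 to 12108) and 13685 in the control library (13457 to 13916), a log2 ratio of -0.69 (interval -0.73 to -0.66). Fn1 encodes fibronectin, the fibril-forming ligand of the α5β1 integrin, and spans bases 78900113 to 78969013 of rn6 chromosome 9, minus strand. Fn1 had 21118 reads in the DA-DDH library (interval 20834 to 21405) and 9560 in the control library (9369 to 9754), a log2 ratio of 0.65 (interval 0.62 to 0.69). The most abundant members thus went in opposite directions. There were 1.78 reads of Fn1 for each read of Sparc in the DA-DDH library and 0.699 in the control library.

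Sparc and Fn1 together held 74.3% of the members' reads in the DA-DDH library and 78.6% in the control library. The sum over all 10 members was 44402 reads in the DA-DDH library and 29579 in the control library. It was accordingly almost level after TMM scaling, with a log2 ratio of 0.09 (interval 0.07 to 0.12). As a share of all reads, however, it was 5.32% in the DA-DDH library and 3.71% in the control library. The 8 genes other than Sparc and Fn1 summed to 11392 reads in the DA-DDH library and 6334 in the control library, a log2 ratio of 0.35 (interval 0.31 to 0.40).

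In level per exon length, Sparc and Fn1 came first and Tnn and Thbs3 last in both libraries, and the order between them differed. Sparc was at 6063 CPM per kb in the DA-DDH library and 9813 in the control library, and Fn1 at 2622 in the DA-DDH library and 1670 in the control library. In the DA-DDH library Postn followed at 739 CPM per kb, then Tnc, Tgfbi, Thbs2, Thbs4 and Thbs1, which ran from 414 down to 344. Within this group Tgfbi and Thbs2, Thbs2 and Thbs4, and Thbs4 and Thbs1 were neighbors whose ratio had an interval that included 1. In the control library Thbs1 took the third place at 694 CPM per kb, ahead of Postn, Tgfbi, Thbs2, Thbs4 and Tnc, which ran from 349 to 252. There, Postn and Tgfbi, and Thbs4 and Tnc, had intervals that included 1. Postn thus lay above Thbs1 in the DA-DDH library and below it in the control library. The level of Thbs1 is less certain, because its annotated exon length is broken into pieces. By reads, without length correction, the order of these genes was the same. Postn had 2269 and Thbs1 1200 reads in the DA-DDH library, and 762 and 1722 in the control library.

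**Figure D5:**
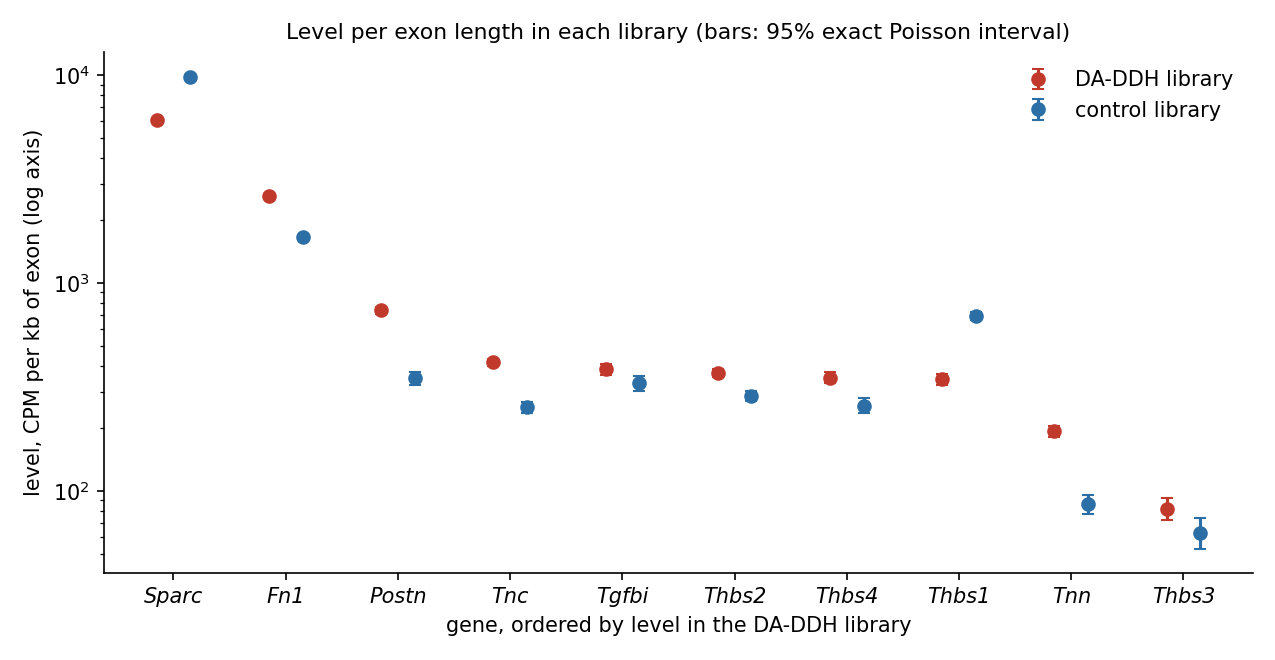
Level of each member in CPM per kb of annotated exon on a logarithmic vertical axis, with genes ordered by the DA-DDH level on the horizontal axis. Red points are the DA-DDH library, blue points the control library, and bars the 95% exact Poisson intervals. Thbs1 and Sparc have the blue point above the red one, and the other 8 genes the red point above the blue one.

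The genes most like Postn were found by the distance in log2 ratio over the 2 libraries, among the 133 genes whose higher value reached 500 reads. They were Vcan (versican, at 1.02), Col5a3 (a chain of type V collagen, at 1.16), Tnn (1.16), Lum (lumican, at 0.80) and Flna (filamin A, an actin crosslinker, at 0.77). Of these 133 genes, 6 were over 2-fold higher in DA-DDH cartilage and 18 over 2-fold lower. A single ratio between 2 libraries is a weak measure of likeness.

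Further matricellular genes showed no common direction. Of 18 listed, 17 were matched and 12 had at least 30 reads, with 6 above 0 and 6 below 0 and a median log2 ratio of -0.12, which became 0.31 with total-count scaling. In this list 1 gene was over 2-fold higher and 3 over 2-fold lower. The calcium-binding Sparc relatives Smoc2 (131 reads in the DA-DDH library and 231 in the control library) and Smoc1 (38 DA-DDH and 65 control reads) were at -1.31 and -1.25. Cyr61, a CCN family target of the YAP pathway, had 132 DA-DDH and 223 control reads, at -1.24. The CCN gene Wisp2 had 37 DA-DDH and 11 control reads, at 1.23 with an interval from 0.26 to 2.38. Sparcl1, the closest relative of Sparc, was at 0.54 (340 reads in the DA-DDH library and 166 in the control library) while Sparc itself was at -0.69. Comp, the pentameric thrombospondin of cartilage and tendon, had 2590 DA-DDH and 2554 control reads, at -0.47, so it lay between Thbs1 and the other members of its family.

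Among the receptors, all 7 integrin chains at the floor, of 14 listed and 10 matched, had positive log2 ratios (median 0.42), and 1 was over 2-fold higher. Of all genes at that floor, 52.6% lay above 0 and 4.82% were over 2-fold higher. Itgb3, whose β3 chain pairs with αV in the receptor that binds periostin, had 59 reads in the DA-DDH library and 15 in the control library, at 1.46 (interval 0.65 to 2.41). The αV gene Itgav had no matching symbol, so that chain has no value here. Itga5, the fibronectin receptor chain, had 181 DA-DDH and 96 control reads, at 0.42 (interval 0.06 to 0.80). Itgb1 was at 0.38 (interval 0.15 to 0.61). Itga4 and Itgb4 were at 0.59 and 0.44 with intervals that included 0. The intervals of Itgb5, at 0.14 (-0.15 to 0.44), and Itga6, at 0.24 (-0.12 to 0.60), included 0 as well. Of 9 other receptors at the floor, 6 were above 0, with a median of 0.41, although their summed reads were at -0.14. Cacna2d1, a calcium channel subunit that binds thrombospondins in neurons, was at 1.16 (98 reads in the DA-DDH library and 31 in the control library), and Cd47, a receptor of Thbs1, at 0.73 (54 DA-DDH and 23 control reads). Anxa2, a cell surface ligand of tenascin C, was at 0.58, and the heparan sulfate proteoglycan Sdc4, a coreceptor of fibronectin, at -0.54. Ptprz1, a receptor phosphatase that binds tenascins, stayed under the floor, with 22 reads in the DA-DDH library and 0 in the control library. The exact interval of its log2 ratio began at 1.96 and had no upper bound.

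Partners in the matrix were mostly higher, with 9 of 11 genes at the floor above 0 and a median of 0.28 on the log2 scale, although their summed reads were nearly level at 0.04. The most abundant partner, Col1a1, had 54156 reads in the DA-DDH library and 44916 in the control library, at -0.22 (interval -0.24 to -0.20), a sign that turns with total-count scaling. Col3a1, the fibrous collagen with 31102 reads in the DA-DDH library and 14384 in the control library, was at 0.62, the proteoglycan Vcan at 1.02 and fibrillin Fbn1 at 0.52. Bgn, which encodes biglycan, was at -0.52. Of the genes of TGF-beta ligands, receptors and latent binding proteins, 7 of 13 were above 0, with a median of 0.09. With total-count scaling this median was 0.52. In this list the receptor gene Tgfbr1 was at 0.52 (interval -0.01 to 1.08), Ltbp2 at 0.48 and Ltbp3, the lowest, at -0.37. With total-count scaling Ltbp3 lies above 0, and so does the whole list, so the split depends on the scaling. The ligand genes Tgfb1, Tgfb2 and Tgfb3 had between 66 and 126 reads in the DA-DDH library and between 44 and 90 in the control library, all with intervals that included 0.

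Of the 10 genes listed for the signaling axis the study proposed for periostin, 6 reached the floor. Il6 was listed at 0 reads in both libraries, which allows up to 3 reads in each by counting error alone. Mmp3 had 11 reads in the DA-DDH library and 7 in the control library, at 0.15 (interval -1.34 to 1.77). The other listed genes under the floor were below 0. Il6r had 22 DA-DDH and 29 control reads, at -0.87 (interval -1.76 to -0.04). Socs3 had 15 DA-DDH and 18 control reads, at -0.73 (interval -1.85 to 0.32). By qPCR and immunostaining at other ages, the study reported higher IL-6 and Mmp3 expression in DA-DDH cartilage. The 6 genes of the list at the floor all had positive log2 ratios (median 0.26), none over 2-fold. Among them were Src at 0.72 (interval -0.10 to 1.61), Il6st, the shared receptor chain of IL-6 cytokines, at 0.59 (interval 0.31 to 0.87), Nfkb1 at 0.40 and Ptk2, which encodes FAK, at 0.11 (intervals that included 0). A difference in Il6 was not detectable at this depth, and one in Mmp3 only beyond the interval given.

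The cartilage had been dissected under a microscope to leave out soft tissue as far as possible, and markers of several tissues and cell types differed between the libraries. All 12 hyaline cartilage markers were below 0, with 117571 summed reads in the DA-DDH library and 273361 in the control library (log2 ratio -1.71). Fibroblast markers, of which 7 of 8 at the floor were above 0, had a median of 0.51 and summed to 3317 DA-DDH and 2147 control reads (0.14, interval 0.06 to 0.21). Endothelial markers (9 of 9 above 0) summed to 1123 reads in the DA-DDH library and 366 in the control library (1.12), skeletal muscle markers (11 of 12) to 2406 DA-DDH and 782 control reads (1.13), and macrophage markers (4 of 4) to 628 DA-DDH and 174 control reads (1.36). Adipocyte markers (3 of 3) summed to 244 DA-DDH and 98 control reads (0.82), and smooth muscle and pericyte markers (6 of 7) to 1383 DA-DDH and 859 control reads (0.20). Markers of these cell types were thus detected in both libraries and summed higher in the DA-DDH library under each scaling used. Osteoblast markers (2 of 5 above 0) summed to 865 reads in the DA-DDH library and 740 in the control library (-0.27, positive with total-count scaling), with Sost at 0 in both. Tendon and ligament markers (1 of 3) summed to 4618 DA-DDH and 5770 control reads (-0.81), of which Fmod, also a cartilage gene, held most. Megakaryocyte and platelet markers were near 0 (platelets are the blood source of Thbs1), with 3 reads in each library and Ppbp and Gp1bb at 0. All 9 immediate early genes at the floor were below 0, with 473 reads in the DA-DDH library and 1113 in the control library (-1.73). In pooled tissue, fewer cells of a type and less RNA per cell cannot be told apart, and the part of these differences in the values of the members was not tested.

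Relative to the summed fibroblast markers within each library, 6 members were higher in the DA-DDH library, 2 lower and 2 had intervals that included 0. Tnn exceeded these markers by 1.03 on the log2 scale (interval 0.84 to 1.23), Postn by 0.95 (0.80 to 1.09), Tnc by 0.58 (0.45 to 0.71) and Fn1 by 0.52 (0.43 to 0.60). Tgfbi, at 0.09 (interval -0.08 to 0.25), and Thbs3, at 0.25 (-0.07 to 0.57), were not distinguishable from them by counting error. Thbs1 was at -1.15 and Sparc at -0.83. Of the summed marker reads, Col14a1 held 1624 in the DA-DDH library and 1068 in the control library (0.11). Fap, the only marker at the floor with a log2 ratio below 0, held 360 in the DA-DDH library and 426 in the control library (-0.73). The median marker, at 0.51, lay above the log2 ratios of Thbs2 (0.36) and Thbs4 (0.44), so these were higher than the markers only by their sum. Tnc (0.72) and Fn1 (0.65) lay above the median marker too, but by less than above the sum. Postn (1.08) and Tnn (1.16) also lay above the median marker, but single fibroblast markers had similar log2 ratios. Fbln1 was at 1.11 (interval 0.07 to 2.33), Cd34 at 1.03 (0.59 to 1.51) and Dpt at 0.81 (0.42 to 1.22). Pdgfrb, at 0.52, was the highest of the other markers at the floor. Relative to Col3a1, only Tnn (0.54, interval 0.37 to 0.73) and Postn (0.46, interval 0.34 to 0.59) were higher, whereas Tnc, Fn1 and Thbs3 had intervals that included 0 and the other 5 were lower. Relative to Col1a1, by contrast, 8 members were higher and 2 lower, with a median of 0.64 and no interval that included 0. Relative to Col2a1 all 10 members were higher in the DA-DDH library, with Thbs1 at 0.77 and Sparc at 1.09. These references were chosen after the data were seen, and the sign turned for Tgfbi, Thbs2, Thbs3 and Thbs4 relative to Col3a1 and for Thbs1 and Sparc relative to Col2a1.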

How the data were processed

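RNA-seq of acetabular cartilage gave 1 library of pooled RNA per condition. The labels name Isogen extraction and a SMARTer total RNA kit (Pico Input), the methods RNeasy Plus extraction and a TruSeq mRNA kit, so whether polyadenylated RNA was selected is unclear. The submitters' processing notes name TopHat, Cufflinks and rn6. The counting tool and its strand setting are not given in the sources used here.

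The deposited signal values are read counts that the authors multiplied by 1 factor per library. All values (100%, relative tolerance 1e-06) were whole multiples of 1 read, worth 0.855 in the DA-DDH and 1.20 in the control library, and reads were recovered by division. Further deposited columns with the authors' fold changes, p-values, q-values and ranks were not used.

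TMM factors (1.16 for DA-DDH, 0.863 for control) came from edgeR 4.0.16 in R 4.3.3. Log2 ratios used a prior of 0.5 reads, split in proportion to the scaled library sizes. CPM is reads per 1000000 of scaled library size, and levels divide it by the deposited exon length. Intervals were exact Poisson for reads, Clopper-Pearson binomial for ratios, and conditional odds ratio for paralogs. No count test was run, because 1 library per condition gives no dispersion. Calculations were tested on simulated data. Alternatives covered scaling (total reads, upper quartile, DESeq2 1.42.0 median of ratios, deposited values, Gapdh, TMM without Col2a1), priors, floors, thresholds and exon length.

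Members and gene lists were chosen with earlier results of these data known. Genes named are all members, up to 4 per list of relatives, receptors, partners and signaling genes with the largest absolute log2 ratio at the floor of 30 reads, and the 5 nearest to Postn. In the TGF-beta list, 1 gene that this rule names is not reported here. Sparcl1, Comp, Col1a1, Col14a1, Fap, Ptprz1, Il6, Mmp3 and the Tgfb ligands were added after their values were seen. So were Il6r, Socs3, Itgb1, Itgb5, Itga6, Cd34, Fbln1, Dpt and Pdgfrb. Listed genes without a matching symbol were not analysed here. Other steps ran in Python 3.11.15 (scipy 1.17.1).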

Additional observations from a re-analysis of the deposited data

How the results depend on the processing

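Scaling decided how many members passed 2-fold. With total reads 4 were more than 2-fold higher and 0 lower, beside 14.6% and 1.07% of all genes, and the median log2 ratio was 0.84, against 0.45 over all genes. As a ratio to Gapdh 0 were more than 2-fold lower, beside 2.15% of all genes. A threshold of 1.5-fold gave 4 higher and 2 lower. The signs of all 10 members were the same under all 6 scalings and both other priors. Against single references chosen after seeing the data, the sign turned relative to Col3a1 for Tgfbi (-0.40), Thbs2 (-0.26), Thbs3 (-0.23) and Thbs4 (-0.18), and relative to Col2a1 for Thbs1 (0.77) and Sparc (1.09). Relative to Col1a1 no sign turned. Without length correction Postn took 69.4% of its pair in the DA-DDH library and 55.5% in the control library. Of the summed reads of Thbs1 to Thbs4, Thbs1 took 26.2% in the DA-DDH library and 48.5% in the control library. The 8 paralog differences stayed inside their intervals with either prior. Coding lengths were not used, and that alternative was not run. No paired analysis was possible because each condition has 1 library. Among the members Thbs3 had the fewest reads and the widest interval, and the spread between rats is unknown.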
